A study of Homo sapiens with 9 samples.

Results

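MHC class I molecules carry peptides from inside the cell to its surface, and 9 genes of this pathway were followed in ES-2 cells, an established line derived from an ovarian carcinoma. The genes were HLA-B, HLA-C and HLA-E, B2M, TAP1 and TAP2, PSMB8 and PSMB9, and NLRC5. They were taken by gene name from a fixed list, which was set with earlier results of these data known, and all 9 were found among the 58174 genes of the data. The source tables write the hyphen of the HLA names as a dot. Total RNA was sequenced after depletion of ribosomal RNA, 72 hours after transfection. Cells received control siRNAs (siC), a pool of siRNAs against IGF2BP1 (siIGF2BP1) or a pool against SRF (siSRF), with 3 libraries in each of the 3 groups. IGF2BP1 is an RNA-binding protein that protects many of its target mRNAs from decay, and SRF is a transcription factor whose mRNA is among those targets. All 9 libraries came from the same line, and the labels do not say whether the 3 libraries of a group were separate cultures. The p-values below therefore measure the spread between these libraries, which may be technical.

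In the class I pathway, the proteasome cuts proteins into peptides, and the immunoproteasome subunits PSMB8, PSMB9 and PSMB10 replace constitutive subunits of its core and alter which peptides are made. The transporter formed by TAP1 and TAP2 brings the peptides into the endoplasmic reticulum, where they are loaded onto a heavy chain (such as HLA-B, HLA-C or HLA-E) paired with the light chain B2M. NLRC5 acts as the transactivator of class I genes, interferons induce the pathway through IRF1 among others, and many tumours carry less class I than their tissue of origin.

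Values were FPKM, reads relative to gene length and library depth after scaling of the libraries by the authors. Between 6421764 and 9416175 reads per library fell on genes. Read numbers recovered from FPKM and gene length were 2702 to 5550 per library for B2M, 216 to 708 for HLA-C, 76 to 181 for HLA-E, 60 to 193 for NLRC5 and 26 to 88 for HLA-B. PSMB9 had 12 to 33, PSMB8 13 to 32, TAP2 13 to 27 and TAP1 9 to 21, and at such numbers, those of HLA-B in siC and siSRF included, counting error adds to the spread between libraries. Groups were compared with limma on log2(FPKM + 0.1), fitted to every gene that averaged 0.1 FPKM or more in the 6 libraries compared, and a gene was called at an adjusted p of at most 0.01. Fold changes are given on the log2 scale of FPKM + 0.1, and levels as mean FPKM ± SD (n = 3 libraries).

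The targets of the siRNA pools were read first, as a check of the labels. IGF2BP1 was at 12.8, 13.5 and 12.1 FPKM in siC, at 4.18, 4.14 and 4.02 in siIGF2BP1 and at 13.7, 14.6 and 14.4 in siSRF. SRF was at 13.6, 14.1 and 16.0 FPKM in siC, at 5.80, 5.42 and 6.80 in siIGF2BP1 and at 1.63, 1.36 and 1.42 in siSRF. Each pool lowered its own target in all 3 libraries, and SRF was also lower in every siIGF2BP1 library, so that both knockdowns shared a lower SRF mRNA. In limma, IGF2BP1 fell by 1.61 in siIGF2BP1 (adjusted p = 0.000141), and SRF fell by 1.26 in siIGF2BP1 (adjusted p = 0.00111). In siSRF, SRF fell by 3.22 (adjusted p = 6.07e-05 in limma). A list of 8 genes held markers of ovarian carcinoma lines and vimentin (VIM). VIM was the most abundant of them, at a mean of 931 FPKM, and KRT7 stood at 101 ± 4.31 FPKM in siC. EPCAM, KRT19 and PAX8 were low, at means of 0.0641, 0.0281 and 0.157 FPKM over the 9 libraries, and MUC16 was listed at 0 in every library. Of the 5 markers tested, KRT7 was called higher in both knockdowns (0.59 in siIGF2BP1, 0.33 in siSRF), KRT8 in siIGF2BP1 (0.55) and KRT18 in siSRF (0.91), and VIM fell by 0.31 in siSRF. The call of KRT18 held without any 1 library, and those of KRT8 and VIM ended in every fit that left out 1 library. That of KRT7 ended in siIGF2BP1 without siIGF2BP1 replicate 3 and was kept in siSRF only without siC replicate 2. Of 8 leukocyte markers, 4 were listed at 0 in every library and LCP1 was the most abundant at a mean of 0.248 FPKM. CD14 was at 0.161, 0.156 and 0 FPKM in siC, at 0.484, 0.945 and 0.188 in siIGF2BP1 and at 0, 0.175 and 0.0719 in siSRF. It had 0 to 13 reads per library and was called in no comparison. Of 11 MHC class II genes, 2 were listed at 0 throughout and HLA-DRB1 was the most abundant at a mean of 0.613 FPKM. Summed over the lists, class II lay between 0.406 and 1.69 FPKM and the leukocyte markers between 0.241 and 1.16 FPKM per library, against 96.5 to 157 FPKM for the 9 class I pathway genes. B2M gave 65.3 to 108 FPKM of the latter sum, whereas TAP1 and TAP2 lay between 0.281 and 0.573 FPKM. Exons of most class II genes and of the leukocyte marker PTPRC also occur on alternate contigs of the reference genome, described below, and their levels may be too low.

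Most of the 9 genes lie in the MHC region of chromosome 6, which the reference genome holds several times. NLRC5 lies on chromosome 16 and B2M on chromosome 15. In GRCh38/hg38, 16 alternate contigs of chromosome 6 repeat parts of it, and a read that matches both copies has no single position. Exons of the members were cut into windows of 50 bases and looked up in the whole genome. The share of windows also found on an alternate contig was 74.8% for HLA-B, 91.1% for HLA-C, 93.7% for B2M and 99.5% for TAP2. It was 100% for HLA-E, TAP1, PSMB8 and PSMB9, whereas 99.9% of the windows of NLRC5 were found once. Chromosome 6 held 173 protein-coding genes with at least 50% of their windows on an alternate contig, with a median of 0.0893 FPKM, and 32.4% of them were listed at 0 in every library. The other 842 protein-coding genes of the chromosome had a median of 2.55 FPKM, and 16.2% were listed at 0. The gene content of both classes also differs. For instance, CSNK2B in the MHC region had 0.178 to 0.740 FPKM and its partner CSNK2A1 outside it 21.2 to 36.3 FPKM. DDX39B in the region had 1.12 to 1.60 FPKM, and its paralog DDX39A outside it 14.6 to 26.1 FPKM. Other genes of the class were abundant: RPS18, TUBB, CLIC1 and CUTA, each with 100% of windows on alternate contigs, averaged 110, 30.5, 16.4 and 16.3 FPKM. These 8 genes were chosen after their values were seen. HLA-F and HLA-G, with 96.1% and 95.7% of their windows on alternate contigs, were listed at 0 in all 9 libraries. Whether the authors' index held the alternate contigs, and how reads with several positions were counted, is not given in the sources used here. The levels of 8 of the 9 genes may thus be too low by an amount that was not tested, and their fold changes describe the reads that were counted.

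**Figure D1:**
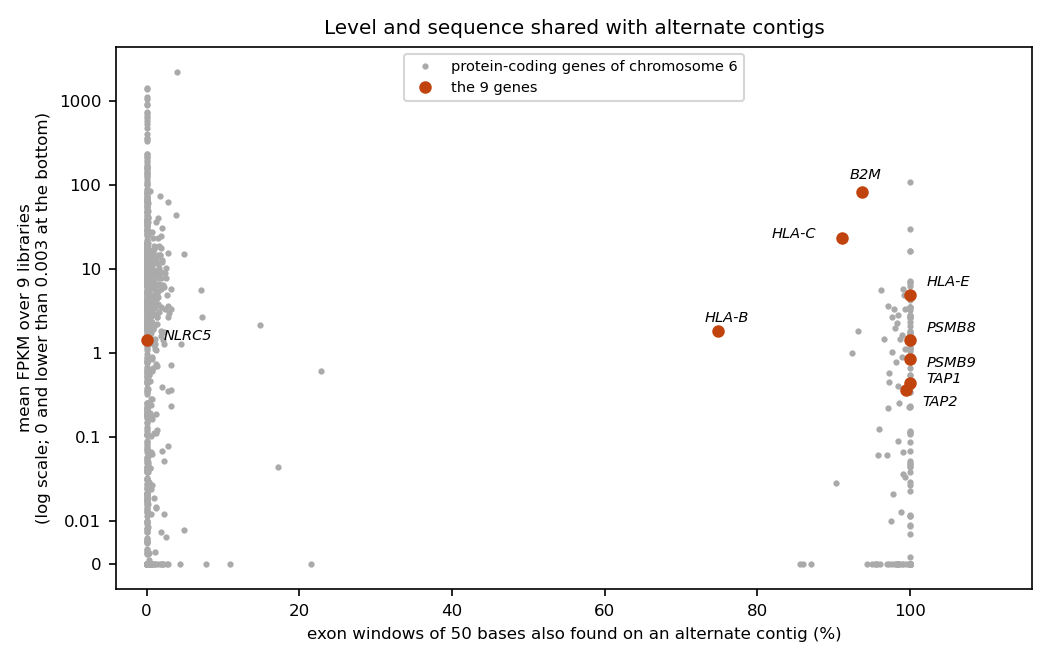
Mean FPKM over 9 libraries (log scale, 0 at the bottom) against the percentage of exon windows of 50 bases that also occur on an alternate contig, for the protein-coding genes of chromosome 6 (grey) and the 9 class I pathway genes (red). NLRC5 sits at the left edge and the other 8 genes lie between 74.8% and 100%.

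The comparisons made were 3: each knockdown against siC, and siIGF2BP1 against siSRF, which tested the difference between the knockdowns directly. They share libraries and are not independent of each other. All 9 genes passed the filter on low values in each of them. In siIGF2BP1 against siC, 1 of 9 was called, higher (B2M), where 7.12% of the 22292 genes tested were called, 3.55% higher and 3.57% lower. The median fold change of the 9 was 0.37, against 0.02 over all genes tested, and 8 of the 9 had a positive value, as had 51.4% of all genes. At an unadjusted p under 0.05 there were 5 of the 9 and 29.2% of all genes tested. HLA-C was called lower in siSRF against siC as the only one of the 9, where 12.2% of 21857 genes were called, 6.85% higher and 5.34% lower. The median of the 9 was -0.28, against 0.01 over all genes; it was -0.10 without siSRF replicate 2, -0.08 after removal of GC and length trends and -0.12 with a pseudocount of 1. Between siIGF2BP1 and siSRF, 4 of 9 were called, each higher in siIGF2BP1 (HLA-B, HLA-C, HLA-E and NLRC5). In that comparison 20% of 22311 genes were called, 8.82% higher and 11.2% lower, and the median of the 9 was 0.94 (0.48 with a pseudocount of 1) against 0.02 over all genes. An unadjusted p under 0.05 in limma was reached by 3 of the 9 in siSRF against siC (34.7% of all genes). Between the knockdowns 6 of the 9 reached it (41.1% of all genes). Groups that do not overlap are described below gene by gene, and the share of all genes with such a separation was not counted. The shares of all genes called are also the background for the lists below. In these bulk samples, more cells with an RNA and more of it per cell cannot be told apart.

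**Figure D2:**
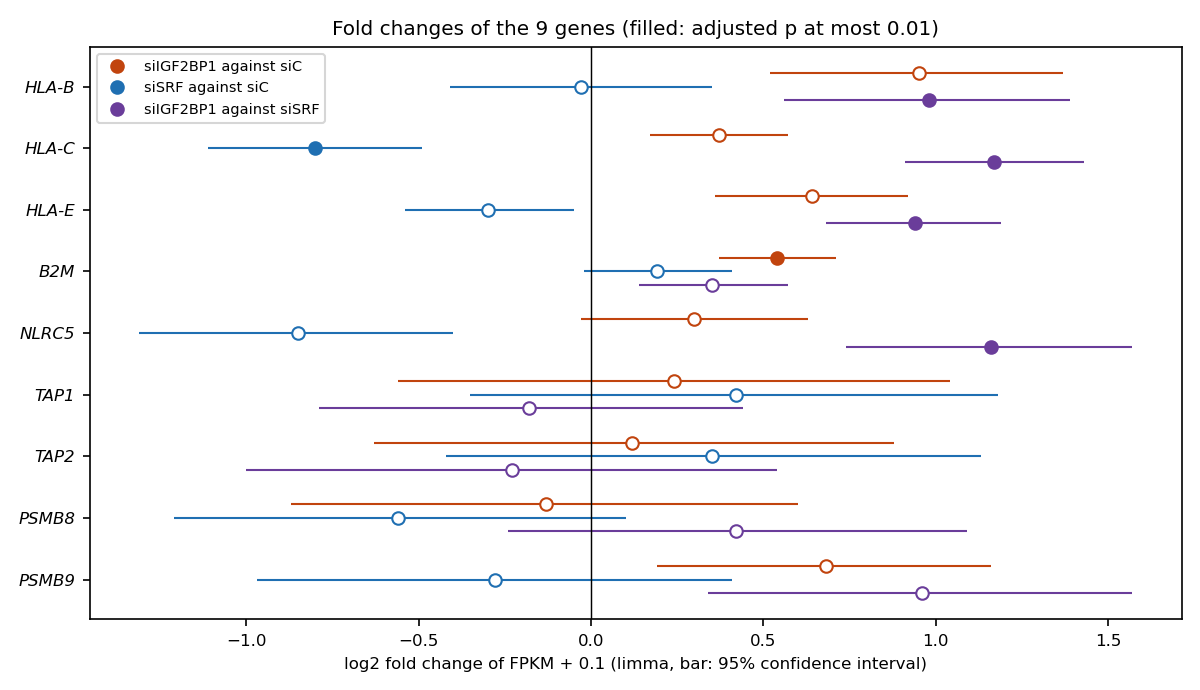
Log2 fold change of FPKM + 0.1 for the 9 genes in 3 comparisons of 3 against 3 libraries, with bars for the 95% confidence interval from limma and filled points for an adjusted p of at most 0.01. The heavy chains lie to the right in siIGF2BP1 against siC (0.37 to 0.95), and the intervals of TAP1 and TAP2 cross 0 in all comparisons.

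The calls against siC were sensitive to single libraries. Without siIGF2BP1 replicate 1, 1 member (B2M) was called in siIGF2BP1 against siC. In the fits of this comparison without 1 library, 1.97% to 3.31% of all genes were called, against 7.12% with all libraries. Leaving out siC replicate 1, 2 or 3 or siIGF2BP1 replicate 2 or 3 ended the call of B2M (adjusted p between 0.00973 and 0.0249 in limma over all leave-out fits). Its fold change moved little, between 0.49 and 0.60. The call of HLA-C in siSRF against siC ended without any 1 of the 6 libraries, with fold changes between -0.90 and -0.69 and adjusted p between 0.0114 and 0.0257 in limma. In these 6 fits 4.33% to 8.22% of all genes were called, against 12.2% with all libraries. Between the knockdowns, HLA-C and HLA-E kept their calls in all 6 fits that left out 1 library. HLA-B lost its call in each of them (adjusted p up to 0.0261 in limma). NLRC5 lost it without siSRF replicate 3 and without each siIGF2BP1 replicate (adjusted p up to 0.0164 in limma). In each of these 4 fits 2 members were called, with 13.7% to 15.1% of all genes called, against 20% with all libraries.

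Promoter sequences of RefSeq (GRCh38.p14) from 250 bases before to 50 bases after the start were at hand for 7 of the 9 genes, in 9 windows since PSMB8 and TAP1 have 2 each; HLA-E and NLRC5 were not in the table. They were searched on both strands for the IRF core AANNGAAA, the GAS element TTCNNNGAA, the CCAAT box CCAAT, the CRE core TGACG and the CArG box, the DNA element bound by SRF. An IRF core occurred in 6 of the 9 windows and in 22.8% of 35116 promoters of the same length, a CRE core in 6 and in 24.6%, a CCAAT box in 5 and in 34.6%, and a GAS element in 2 and in 7.66%. No CArG box was found in these 9 windows, where 1.29% of all promoters held one. The windows are not all separate: 1 of the 2 windows of TAP1 overlaps that of PSMB9, and the CCAAT box counted in both is the same site. The promoters of HLA-B (chr6:31357130-31357429, minus strand), HLA-C (chr6:31272043-31272342, minus strand) and B2M (chr15:44711267-44711566, plus strand) are shown because these members were called in at least 1 comparison, and capitals mark the matches on either strand. In each of them an IRF core, a CRE core and a CCAAT box follow in this order towards the start, and HLA-C has 1 more CCAAT box before the IRF core. The IRF core begins at -155 in HLA-B and at -151 in HLA-C, and 2 overlapping cores begin at -142 and -136 in B2M. A match is a run of letters and not a measured binding site.
HLA-B: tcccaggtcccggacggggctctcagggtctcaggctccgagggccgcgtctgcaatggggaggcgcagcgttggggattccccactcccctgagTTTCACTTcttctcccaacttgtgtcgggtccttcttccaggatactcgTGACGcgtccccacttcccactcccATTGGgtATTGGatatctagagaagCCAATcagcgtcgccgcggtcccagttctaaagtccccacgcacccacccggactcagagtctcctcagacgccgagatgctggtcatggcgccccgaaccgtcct
HLA-C: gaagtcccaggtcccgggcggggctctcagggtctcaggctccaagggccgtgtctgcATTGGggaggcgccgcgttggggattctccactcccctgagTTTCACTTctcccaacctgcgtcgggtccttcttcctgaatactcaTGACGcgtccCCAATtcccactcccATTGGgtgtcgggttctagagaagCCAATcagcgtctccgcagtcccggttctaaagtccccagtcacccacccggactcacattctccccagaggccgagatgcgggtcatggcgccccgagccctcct
B2M: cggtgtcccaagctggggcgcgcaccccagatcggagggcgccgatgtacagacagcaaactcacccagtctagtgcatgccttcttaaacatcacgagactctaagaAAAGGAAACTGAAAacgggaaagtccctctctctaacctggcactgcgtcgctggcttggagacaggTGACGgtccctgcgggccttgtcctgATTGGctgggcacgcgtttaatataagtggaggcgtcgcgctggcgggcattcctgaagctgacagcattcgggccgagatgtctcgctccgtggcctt

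HLA-C, a ligand of killer cell receptors as well as of T cells, was at 27.7, 23.6 and 22.7 FPKM in siC, at 31.0, 31.2 and 33.3 in siIGF2BP1 and at 12.1, 16.3 and 14.2 in siSRF. The 3 groups did not overlap, with siSRF lowest and siIGF2BP1 highest. HLA-C fell by 0.80 in siSRF against siC (SE 0.13, interval -1.11 to -0.49, adjusted p = 0.00644 in limma), from 24.6 ± 2.66 to 14.2 ± 2.1 FPKM. With the trends along gene length and GC content removed from each library, its fold change was -0.59 and the call ended (adjusted p = 0.0268 in limma; 1.33e-07 to 0.036 over the alternatives that kept all libraries). Its value of 0.37 in siIGF2BP1 (0.17 to 0.57) missed the threshold at an adjusted p of 0.0297 in limma. The difference between the knockdowns, 1.17 (0.91 to 1.43, adjusted p = 0.000465 in limma), was called under every alternative.

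HLA-B was at 1.29, 1.5 and 1.36 FPKM in siC, at 2.56, 2.38 and 3.41 in siIGF2BP1 and at 1.33, 1.26 and 1.47 in siSRF. All siIGF2BP1 libraries were above those of the other groups, which overlapped. Its fold change of 0.95 against siC (0.52 to 1.37) missed the threshold (adjusted p = 0.0153 in limma), and siSRF stood at -0.03 (-0.41 to 0.35). HLA-B was higher in siIGF2BP1 than in siSRF by 0.98 (0.56 to 1.39, adjusted p = 0.00639 in limma).

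HLA-E, which presents leader peptides of other class I chains to NK cell receptors, was at 3.97, 4.50 and 4.74 FPKM in siC, at 7.58, 6.04 and 7.18 in siIGF2BP1 and at 3.58, 3.36 and 3.74 in siSRF. The groups did not overlap and followed the order of HLA-C. The fold change of 0.64 in siIGF2BP1 (0.36 to 0.92, adjusted p = 0.0146 in limma) and that of -0.30 in siSRF (-0.54 to -0.05, adjusted p = 0.0851 in limma) missed the threshold, and the latter was -0.08 after removal of GC and length trends. Between the knockdowns HLA-E was higher in siIGF2BP1 by 0.94 (0.68 to 1.19, adjusted p = 0.00101 in limma), a call that every alternative kept.

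The heavy chains share sequence with each other and with pseudogenes, and between 2.82% (HLA-B) and 7.27% (HLA-C) of their exon windows occurred elsewhere on the main chromosomes, so that some reads cannot be assigned to 1 of them. These shares count exact matches within the reference genome only. Reads from alleles of ES-2 that differ from the reference were not examined, so the shares do not give the extent of such reads.

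**Figure D3:**
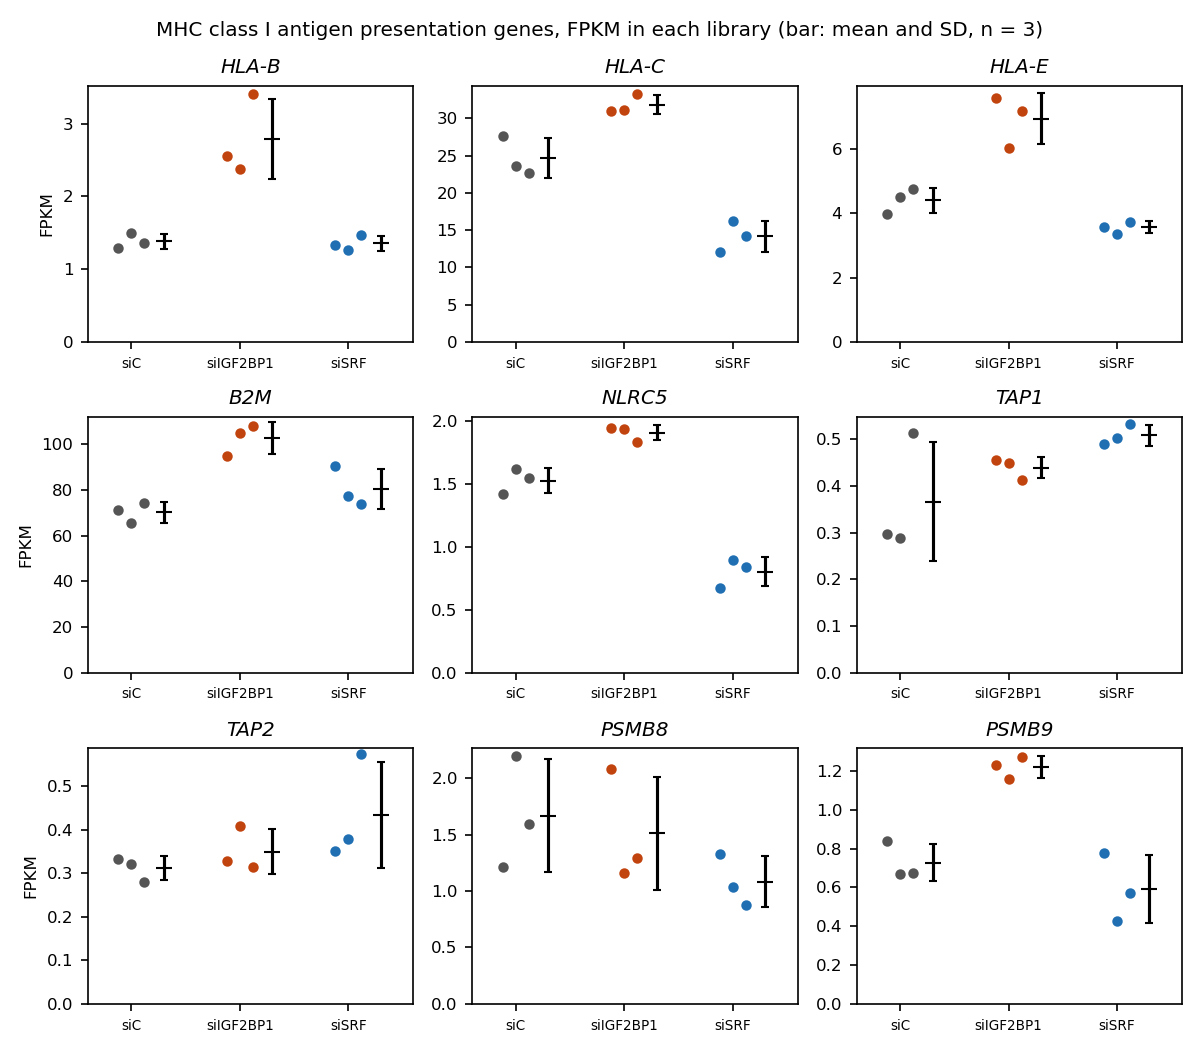
FPKM in each of 9 libraries for the 9 genes, grouped as siC (grey), siIGF2BP1 (orange) and siSRF (blue), with bars for the mean and SD of 3 libraries and a separate vertical axis per gene. For HLA-B, HLA-C, HLA-E, B2M, NLRC5 and PSMB9 all 3 siIGF2BP1 libraries lie above those of both other groups. The share of all genes with such a separation was not counted.

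B2M, the light chain shared by all class I molecules, was the most abundant of the 9 at 71.1, 65.3 and 74.3 FPKM in siC, 94.6, 105 and 108 in siIGF2BP1 and 90.3, 77.1 and 73.7 in siSRF. The siIGF2BP1 libraries were above all others, and siSRF overlapped with siC. B2M rose from 70.2 ± 4.55 to 102 ± 6.86 FPKM in siIGF2BP1, a fold change of 0.54 (SE 0.07, 0.37 to 0.71, adjusted p = 0.00468 in limma). In siSRF it had a fold change of 0.19 (-0.02 to 0.41), which was 0.01 after removal of GC and length trends and 0.10 to 0.25 without single libraries. The difference between the knockdowns, 0.35 (0.14 to 0.57, adjusted p = 0.0252 in limma), was not called; without siSRF replicate 1, which had the highest value of its group, it was 0.44 and called (adjusted p = 0.00882 in limma, up to 0.0869 in other fits without 1 library). It was also called after removal of GC and length trends (0.46), in limma-voom and at an adjusted p of 0.05.

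NLRC5, the transactivator of class I promoters, was at 1.42, 1.62 and 1.55 FPKM in siC, at 1.95, 1.94 and 1.84 in siIGF2BP1 and at 0.679, 0.895 and 0.843 in siSRF. The 3 groups did not overlap, in the same order as for HLA-C and HLA-E. The fold change in siSRF was -0.85 (-1.31 to -0.40) and missed the threshold at an adjusted p of 0.0208 in limma, and that in siIGF2BP1 was 0.30 (-0.03 to 0.63, adjusted p = 0.201 in limma). NLRC5 was higher in siIGF2BP1 than in siSRF by 1.16 (SE 0.17, 0.74 to 1.57, adjusted p = 0.00326 in limma). With a pseudocount of 1 this difference was 0.69 and the siSRF value -0.49. NLRC5 is the member whose exons are nearly all unique in the genome. Genes of chromosome 6 with at least 50% of their windows on an alternate contig served as a background for the members there: of 166 such protein-coding genes, members left out, 76 were tested in siIGF2BP1 against siC, with 1 called higher, 1 called lower and a median fold change of -0.16. In siSRF against siC 78 were tested, with none higher, 1 lower and a median of -0.06. Between the knockdowns, 79 of them were tested, with 4 higher, 2 lower and a median of 0.01.

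TAP1 and TAP2 form the peptide transporter and were the least abundant of the 9. TAP1 was at 0.298, 0.289 and 0.513 FPKM in siC, at 0.456, 0.449 and 0.413 in siIGF2BP1 and at 0.490, 0.503 and 0.533 in siSRF. TAP2 was at 0.332, 0.322 and 0.281 FPKM in siC, at 0.327, 0.408 and 0.314 in siIGF2BP1 and at 0.351, 0.378 and 0.573 in siSRF. Neither gene was called in any comparison, and siC overlapped with siIGF2BP1 in both. All siSRF libraries were above siC for TAP2 and above siIGF2BP1 for TAP1, unlike the other members, while the remaining pairs of groups overlapped. With 9 to 27 reads per library, the interval of TAP1 in siIGF2BP1 against siC reached from -0.56 to 1.04 and that of TAP2 from -0.63 to 0.88, and both hold a change as large as that of B2M. The log2 ratio of TAP1 to TAP2 averaged 0.19 in siC, 0.34 in siIGF2BP1 and 0.26 in siSRF, with overlapping groups.

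The 7 genes of peptide loading and trimming were better covered. ERAP1, which trims peptides in the endoplasmic reticulum, rose from 15.5 ± 0.499 FPKM in siC to 28.8 ± 1.98 in siIGF2BP1 (0.89, adjusted p = 0.000601 in limma) and was at 17.4 ± 0.647 in siSRF. Its calls against siC and against siSRF (0.72, adjusted p = 0.000317 in limma) held without any 1 library. The chaperone CANX rose by 0.41 in siIGF2BP1 (adjusted p = 0.00804 in limma), but its call held in 1 of the 6 fits that left out 1 library, that without siC replicate 3, and ended with every gene above 0 in the fit. The list had 2 of 7 called higher in siIGF2BP1 against siC, with a median of 0.39. Against siC, none of the 7 was called in siSRF in limma (6 at an unadjusted p under 0.05, where all genes had 34.7%; 5 called in limma-voom, where all genes had 23.4%), and the median was -0.26. TAPBP, which bridges the transporter and the heavy chain, was at 3.53, 3.84 and 4.02 FPKM in siC, at 4.64, 4.39 and 3.92 in siIGF2BP1 and at 2.13, 2.71 and 2.20 in siSRF. Its siSRF libraries were below all others, at a fold change of -0.68 that missed the threshold (adjusted p = 0.0121 in limma). Of the exon windows of TAPBP of 50 bases, 100% also occurred on an alternate contig and 11.7% elsewhere on the main chromosomes. Its level may thus be too low, as for the members. Between the knockdowns 4 of 7 were called, each higher in siIGF2BP1: ERAP2 by 1.27, TAPBPL by 1.20, TAPBP by 0.86 and ERAP1. ERAP2 kept its call without any 1 library (adjusted p = 0.00137 in limma). TAPBPL (adjusted p = 0.00642 in limma) lost it without siSRF replicate 1 or 2 or siIGF2BP1 replicate 1 or 3, and TAPBP (adjusted p = 0.00332 in limma) without siSRF replicate 1 or 3 or siIGF2BP1 replicate 1 or 2.

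PSMB8 and PSMB9 are subunits of the immunoproteasome. PSMB9 was at 0.838, 0.671 and 0.675 FPKM in siC, at 1.23, 1.16 and 1.27 in siIGF2BP1 and at 0.776, 0.429 and 0.574 in siSRF. All siIGF2BP1 libraries were above the others, and siC and siSRF overlapped. The fold change of 0.68 against siC (0.19 to 1.16, adjusted p = 0.0713 in limma) and that of 0.96 against siSRF (0.34 to 1.57, adjusted p = 0.0303 in limma) missed the threshold. With a pseudocount of 1 they were 0.36 and 0.48, and the latter was called in limma-voom and at an adjusted p of 0.05. PSMB8 was at 1.21, 2.20 and 1.59 FPKM in siC, at 2.08, 1.16 and 1.29 in siIGF2BP1 and at 1.33, 1.04 and 0.879 in siSRF. Its groups overlapped in all comparisons, with fold changes of -0.13 in siIGF2BP1 (-0.87 to 0.60) and -0.56 in siSRF (-1.21 to 0.10). The sign of the former changed with single libraries, to 0.08 and 0.02. In GENCODE release 44 the span of PSMB9 overlaps TAP1 and PSMB8 on the opposite strand, and the strand setting of the read counting is not given in the sources used here. The antisense transcript PSMB8-AS1 had means between 0.0236 and 0.0468 FPKM and was not tested.

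PSMB10, the remaining inducible subunit, lies outside the MHC region, and all of its exon windows were unique. It was at 4.99, 5.88 and 6.12 FPKM in siC, at 9.71, 10.3 and 10.1 in siIGF2BP1 and at 4.08, 4.03 and 6.44 in siSRF. Every siIGF2BP1 library was above the others, while siSRF replicate 3 stood apart from its group and above siC. PSMB10 rose by 0.82 in siIGF2BP1 against siC (adjusted p = 0.00273 in limma), a call that ended without siC replicate 2 or any siIGF2BP1 replicate (adjusted p up to 0.0189 in limma) and with all 9 libraries in 1 fit (0.0112). Against siSRF it was higher by 1.07 (adjusted p = 0.00578 in limma), a call kept only without siSRF replicate 3, where the difference was 1.28. Of the PA28 activator subunits, PSME1 was at 17.0 FPKM in siC, 18.4 in siIGF2BP1 and 9.73 in siSRF and was higher in siIGF2BP1 than in siSRF by 0.91 (adjusted p = 0.00115 in limma, kept without any 1 library). PSME2 was not called. With PSMB10, this list of 3 had 1 called higher in siIGF2BP1 against siC (median 0.14), none called in limma in siSRF against siC (1 at an unadjusted p under 0.05, 1 called in limma-voom, median -0.25) and 2 higher between the knockdowns (median 0.91).

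Of the 14 constitutive subunits of the proteasome core, 12 had a negative fold change in siIGF2BP1 against siC, and the median was -0.22. Over all genes, 10827 of 22292 had a negative fold change there. The test called 4 of them, each lower: PSMB7 fell by 0.45, PSMB6 by 0.35, PSMA7 by 0.35 and PSMA5 by 0.26 (adjusted p between 0.00541 and 0.00919 in limma), and each call ended without any 1 library. The siSRF libraries had 4 called higher than siC with a median of 0.29: PSMA2 by 0.86, PSMB1 by 0.46, PSMA7 by 0.36 and PSMB6 by 0.28. PSMB5 fell by 0.48 there (adjusted p = 0.00226 in limma). The call of PSMA2 ended without siSRF replicate 2, that of PSMB5 without siSRF replicate 2 or 3 and that of PSMB1 without siC replicate 3 or siSRF replicate 1 or 2, and with GC and length trends removed. The call of PSMA7 was kept only without siC replicate 2 or 3, and that of PSMB6 only without siC replicate 2. Between the knockdowns 8 of 14 were called, each lower in siIGF2BP1, with a median of -0.39. The largest of these differences were -0.77 for PSMB7, -0.72 for PSMA7 and -0.63 for PSMB6, all kept without any 1 library. Of all genes tested, 3.57% were called lower in siIGF2BP1 against siC and 11.2% lower between the knockdowns. In siSRF against siC, 6.85% of all genes were called higher and 5.34% lower.

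Each inducible subunit replaces 1 constitutive subunit, and their ratio was taken within each library, where it does not depend on the scaling. The log2 ratio of PSMB9 to PSMB6 was -7.25, -7.66 and -7.60 in siC, -6.42, -6.39 and -6.40 in siIGF2BP1 and -7.65, -8.57 and -8.14 in siSRF. That of PSMB10 to PSMB7 was -3.90, -3.69 and -3.79 in siC, -2.55, -2.41 and -2.57 in siIGF2BP1 and -4.64, -4.61 and -3.85 in siSRF. Both ratios were higher in every siIGF2BP1 library than in any other library. The difference between siIGF2BP1 and siC was 1.10 for PSMB9 to PSMB6 and 1.28 for PSMB10 to PSMB7 (two-sided exact permutation p = 0.1 for each, adjusted p = 0.3 over 12 ratio tests), and 3 against 3 libraries cannot go below p = 0.1. Between siSRF and siC these ratios differed by -0.61 and -0.57 with overlapping groups (exact permutation p = 0.2 for each). With 0.1 added to both FPKM values, the groups of the former no longer overlapped (-0.56, exact permutation p = 0.1). The ratio of PSMB8 to PSMB5 averaged -5.40 in siC, -5.20 in siIGF2BP1 and -5.52 in siSRF, with overlapping groups. Since PSMB9 lies in the duplicated region and PSMB6 does not, the size of its ratio within a library is not comparable with that of PSMB10 to PSMB7, and whether reads were lost alike in all groups was not tested.

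**Figure D4:**
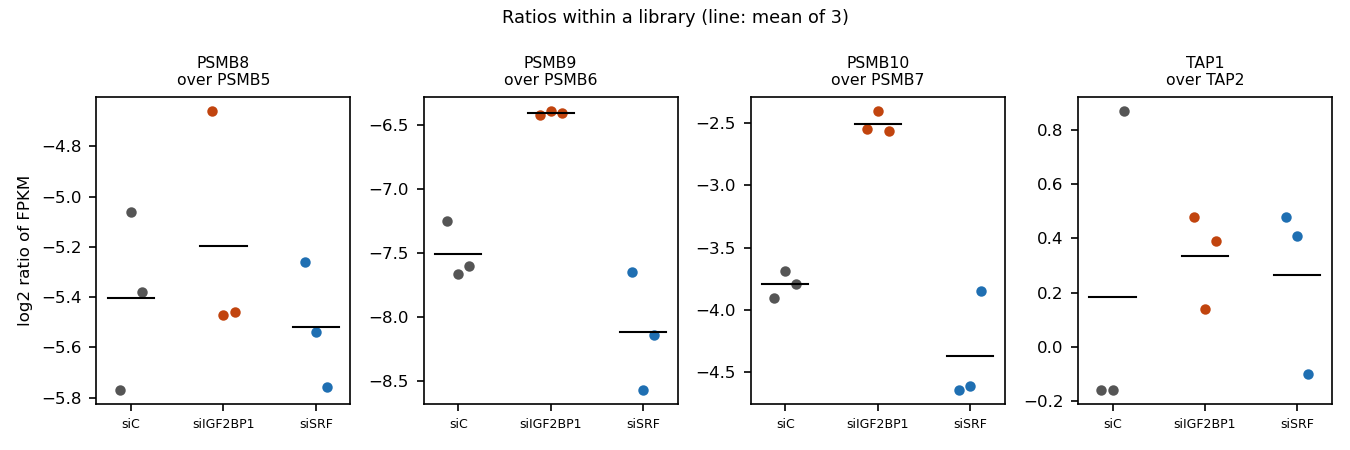
Log2 ratio of FPKM between genes of the same library for 4 ratios, in 3 libraries each of siC, siIGF2BP1 and siSRF, with a line at the group mean. In PSMB9 over PSMB6 and PSMB10 over PSMB7 the siIGF2BP1 libraries lie above all others.

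Regulators of the pathway were read from a list of 22 genes. In siIGF2BP1 against siC, 4 were called, each higher, and the median was 0.25. SOCS1, a feedback inhibitor of interferon signalling, rose by 1.95 (1.17 with a pseudocount of 1; adjusted p = 0.00148 in limma) from 5 reads in each siC library to 20 to 28 in siIGF2BP1. IRF1 was at 4.49, 4.77 and 4.01 FPKM in siC, at 7.37, 7.93 and 8.22 in siIGF2BP1 and at 3.70, 3.60 and 3.88 in siSRF. No group of IRF1 overlapped with another, with siIGF2BP1 highest and siSRF lowest, but siSRF was not called against siC (-0.24, adjusted p = 0.136 in limma; -0.08 after removal of GC and length trends). In siIGF2BP1 IRF1 rose by 0.81 (adjusted p = 0.00282 in limma), JAK1 by 0.74 (adjusted p = 0.00372 in limma) and CREB1 by 0.44 (adjusted p = 0.00571 in limma). The call of SOCS1 ended without siIGF2BP1 replicate 1 or 3, and that of IRF1 without siC replicate 1 or any siIGF2BP1 replicate. That of JAK1 was kept only without siC replicate 2, and that of CREB1 ended without any 1 library and with the GC and length trends removed (adjusted p = 0.0137 in limma).

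Against siC, 3 regulators were called higher in siSRF, IFNGR1 by 0.70, NFYA by 0.49 and JAK1 by 0.41, and the receptor chain IFNGR2 fell by 0.57 (adjusted p = 0.0026 in limma), with a list median of 0.02. IFNGR2 had 92.2% of its exon windows of 50 bases on an alternate contig as well, so its level may be too low. The calls of IFNGR1 and JAK1 ended with the GC and length trends removed, and that of JAK1 also after median-ratio rescaling. Without single libraries, the call of IFNGR1 ended without siSRF replicate 1 or 3 and that of NFYA without siSRF replicate 1 or 2. That of JAK1 was kept only without siC replicate 2, and that of IFNGR2 only without siC replicate 1. Between the knockdowns, 5 regulators were called higher in siIGF2BP1 and 3 lower, with a median of 0.11. SOCS1 (2.11, or 1.22 with a pseudocount of 1), IRF1 (1.05) and IFNGR2 (0.81) had the largest differences among them. The call of IRF1 (adjusted p = 0.000156 in limma) held without any 1 library. That of SOCS1 was kept only without siSRF replicate 2, and that of IFNGR2 only without siIGF2BP1 replicate 1 or 2.

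Interferon-stimulated genes outside antigen presentation were counted on a list of 32, 4 of them listed at 0 in every library, and their FPKM summed to 88.8, 91.8 and 94.6 in siC, 111, 108 and 110 in siIGF2BP1 and 61.8, 63.6 and 61.0 in siSRF. The sums of the 3 groups did not overlap and had the order of HLA-C, HLA-E and NLRC5; whether they have a part in the class I values was not tested. In siIGF2BP1 against siC, 24 were tested, 4 were called higher and 1 lower, and the median was 0.52. Without IFI27 and XAF1, which passed the filter through siIGF2BP1 alone, it was 0.41. The genes called higher were IFIT1 (0.94), IFIT2 (0.88), IFIT3 (0.73) and PARP9 (0.73), and DDX58 fell by 0.92 (adjusted p = 0.00126 in limma). DDX58 kept its call without any 1 library, IFIT3 only without siIGF2BP1 replicate 1, and the other 3 lost it without any 1 library and with every gene above 0 in the fit. In siSRF, 22 were tested against siC and 5 were called, each lower, with a median of -0.68. Of the 17 genes with a mean of 0.1 FPKM in each group, 4 were called, each lower, with a median of -0.59. GBP1 was not among the 17, since it passed the filter through siC alone. GBP1 fell by 2.66 (0.97 with a pseudocount of 1, 3.48 with 0.01), OAS3 by 1.28, IFI44 by 0.83, DTX3L by 0.72 and IFIT3 by 0.70 (adjusted p between 0.00223 and 0.00933 in limma). The call of GBP1 ended without any siC replicate, and that of IFI44 without siC replicate 1 or any siSRF replicate. DTX3L kept its call only without siC replicate 3, OAS3 only without siSRF replicate 1 and IFIT3 only without siSRF replicate 2, and IFIT3 lost it with every gene above 0 in the fit.

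Between the knockdowns, 14 of 24 tested interferon-stimulated genes were called higher in siIGF2BP1 and DDX58 lower, with a median of 1.12. Of the 18 genes with a mean of 0.1 FPKM in each group, 11 were called higher and 1 lower, with a median of 0.99. GBP1, GBP2 and IFI44L were not among the 18, since they passed the filter through siIGF2BP1 alone. GBP1 (3.28, adjusted p = 0.000412 in limma) and IFI44L (2.50, adjusted p = 0.00148 in limma) kept their calls without any 1 library, but with 2 to 6 reads of GBP1 and 6 to 9 of IFI44L in the siSRF libraries their sizes depend on the pseudocount (1.36 and 0.85 at 1, 4.13 and 3.33 at 0.01). GBP2 was listed at 0 in all siSRF libraries, against 11 to 26 reads in the siIGF2BP1 libraries, and its call ended without any 1 library. The size of its difference, 2.30, was set by the pseudocount (0.49 at 1, 5.32 at 0.01). Of 7 interferon genes, 6 were listed at 0 in every library. IFNE, the remaining one, was at 0.281 to 1.24 FPKM (3 to 13 reads) and was not called in any comparison.

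**Figure D5:**
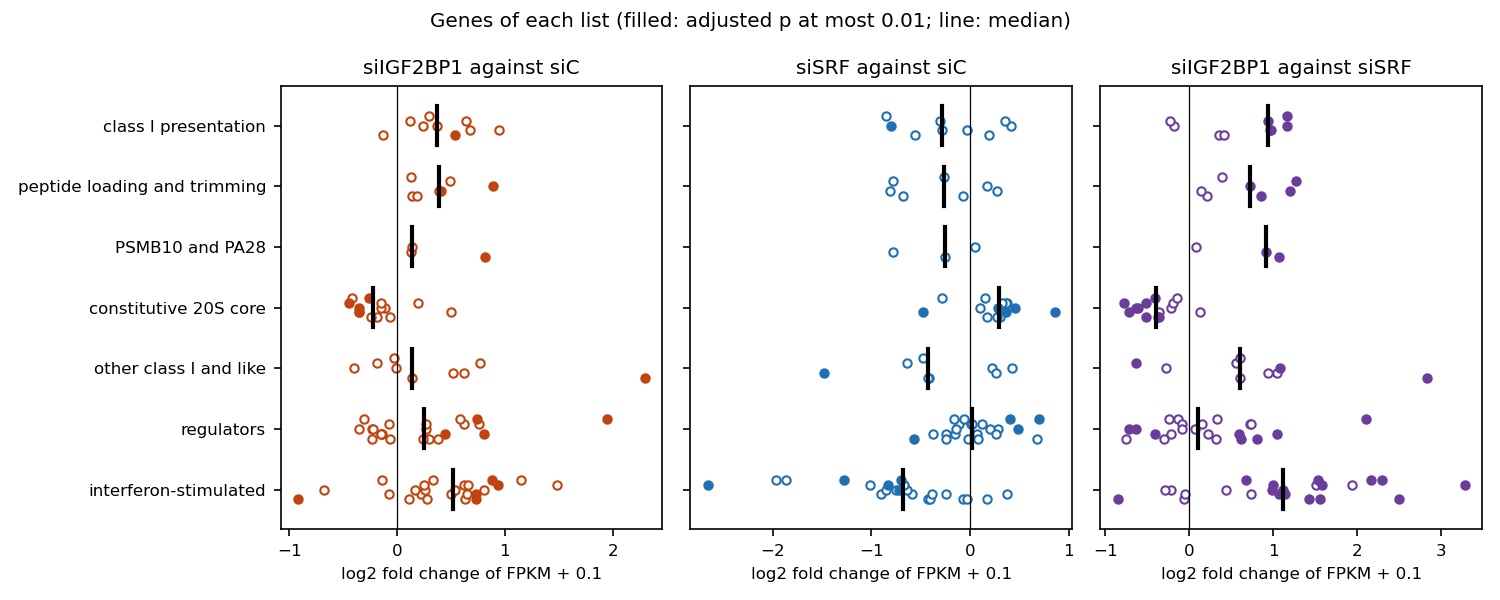
Log2 fold change of FPKM + 0.1 for the tested genes of 7 lists in 3 comparisons, with filled points for an adjusted p of at most 0.01 in limma and a line at the median of each list. The medians of the class I genes and the interferon-stimulated genes are 0.37 and 0.52 in siIGF2BP1 against siC, and the constitutive proteasome core lies at -0.22.

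Other class I and class I-like genes made a list of 14, of which 3 were listed at 0 in every library. In siIGF2BP1 against siC 9 were tested with a median of 0.14, and CD1D, which presents lipids, was called higher. It had 1 read in each siC library and 9 to 18 reads in the siIGF2BP1 libraries, and its call ended without any 1 library, with a pseudocount of 1 and with every gene above 0 in the fit. CD1D passed the filter on low values through its siIGF2BP1 libraries (0.0646 FPKM in siC, 0.0162 in siSRF, 0.731 in siIGF2BP1), so little rests on its calls, and the median without it was 0.06. The siSRF comparison with siC tested 8 with a median of -0.43. HFE, an MHC class I-like regulator of iron uptake, fell by 1.48 there (adjusted p = 0.00493 in limma), from 2.1 ± 0.453 to 0.674 ± 0.0569 FPKM (-0.88 with a pseudocount of 1), and its call was kept only without siC replicate 2. Between the knockdowns CD1D and HFE (1.08, or 0.60 with a pseudocount of 1; adjusted p = 0.00624 in limma) were called higher in siIGF2BP1 and ULBP3 lower (-0.63, adjusted p = 0.00333 in limma), with a median of 0.61. There CD1D kept its call only without siSRF replicate 2 or siIGF2BP1 replicate 1, HFE lost it without any 1 library and ULBP3 kept it only without siIGF2BP1 replicate 1 or 2. The call of HFE also ended at a minimum mean of 1 FPKM, and that of ULBP3 in limma-voom.

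The mean profile of the 9 genes over the 9 libraries, on centred log2 values, was -0.12, -0.05 and -0.04 in siC, 0.39, 0.28 and 0.36 in siIGF2BP1 and -0.26, -0.32 and -0.24 in siSRF. HLA-E lay closest to it, at a root mean square difference of 0.151, and TAP2 farthest at 0.396. Of 14160 other genes that averaged 1 FPKM or more, the 5 nearest were TMED1 (0.0303), STAT2 (0.047), B3GNT5 (0.0518), IMPDH2 (0.0538) and CREB1 (0.0557). STAT2 was at 7.37 ± 0.399 FPKM in siC, 9.59 ± 0.479 in siIGF2BP1 and 6.22 ± 0.137 in siSRF. Among so many genes such matches arise in number, and no test was made of them.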

How the data were processed

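Total RNA-seq values of 9 libraries were read from the 2 tables the authors deposited, which hold FPKM per library, gene length in bases and the authors' own log2 fold change, p-value and FDR; the latter 3 were not used. Per the labels, the authors trimmed reads with Cutadapt 1.14, aligned them with HISAT2 2.1.0 to GRCh38/hg38, handled them with SAMtools 1.5, counted them on genes of Ensembl release 89 with featureCounts 1.5.3 and scaled libraries by TMM in edgeR 3.18.1. The siC values were identical in both tables. FPKM times length came in whole multiples of 1 read for 100% of values above 0 (tolerance 0.01 reads), which gave the read numbers; intervals cover counting error and the spread between libraries together.

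Each pair of groups was fitted with limma 3.58.1 (lmFit and eBayes with trend, R 4.3.3) on log2(FPKM + 0.1), with the Benjamini-Hochberg adjustment over all genes fitted. Ratios within libraries were compared by two-sided exact permutation tests (SciPy 1.17.1). Exon windows of 50 and 75 bases (GENCODE release 44) were looked up in hg38 in Python 3.11.15. Alternatives were another pseudocount, filter, scaling, threshold or variance model (limma-voom), a replicate block, GC and length trends, genes of at least 200 bases, list medians over genes with a mean of 0.1 FPKM in each group, all 9 libraries in 1 fit, and single libraries left out.

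The members and lists were chosen with earlier results of these data known. The genes named were the members, both siRNA targets, PSMB5, PSMB6, PSMB7, PSMB10, TAPBP, IRF1 and PSMB8-AS1, the genes of each list called in a comparison (the 3 largest fold changes where more than 5 were called), and the 5 genes most like the mean profile. The other genes named were PSME2, a list's most abundant gene, genes listed at 0, and examples said to be chosen after their values were seen. IFI27 and XAF1 were named because they passed the filter through siIGF2BP1 alone, and CD14 because its siIGF2BP1 libraries were above the other groups. EPCAM, KRT19 and PAX8 were named as the markers of ovarian carcinoma lines with low values. A planned member, a regulator and a marker are not reported here, and lists, sums and ratios were computed without them.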

Additional observations from a re-analysis of the deposited data

How the results depend on the processing

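The number of the 9 genes called in siIGF2BP1 against siC, 1 in limma-trend, was 2 at a minimum mean of 1 FPKM (6 of the 9 tested), 3 with all 9 libraries in 1 fit, 3 after GC and length trends were taken out, 4 at an adjusted p of 0.05 and 4 in limma-voom. The share of all genes called rose as well, from 7.12% to 13.5%, 11.1%, 8.88%, 16.1% and 17.1%. It was 9.80% with genes of at least 200 bases, where 3 of the 9 were called, an alternative chosen after seeing the data, since 37 of the genes called in this comparison were shorter. The count was 0 with the replicate block, where 91 of all genes were called instead of 1588, and 0 to 1 without single libraries; 5 of the 9 and 24.8% to 27.5% of all genes had an unadjusted p under 0.05 in limma in each of these fits. The called genes were all higher.

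In siSRF against siC the count, 1, was 2 in limma-voom, 2 with all 9 libraries and 2 at an adjusted p of 0.05 (all genes 23.4%, 16.6% and 23.8%, against 12.2%), 0 after the GC and length trends, 0 with the replicate block (501 of all genes called) and 0 without each of the 6 libraries, with 2 to 4 of the 9 at an unadjusted p under 0.05 in limma in these fits, against 30.1% to 34.3% of all genes. NLRC5 was the added gene. Between the knockdowns the count, 4, was 2 with the replicate block (HLA-C and HLA-E), where 9.3% of all genes were called, against 20%. It was 2 to 4 without single libraries (all genes 12.9% to 15.1%). The other alternatives gave 4 to 6 (all genes 14.1% to 33.5%). Replicates of equal number did not go together (correlation of their deviations -0.0329 to 0.0129 over 22354 genes), so the block spends degrees of freedom; the fits without 1 library also have fewer. The causes of the other changes were not tested.

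The fold changes of HLA-B in siSRF against siC (-0.03) turned to 0.13 after the GC and length trends and ranged from -0.08 to 0.03 without single libraries. That of PSMB8 in siIGF2BP1 against siC ranged from -0.37 to 0.08 without single libraries. After the GC and length trends, signs also changed for SOCS1 (0.07), TMED1 (0.03) and PSMA5 (-0.02) in siSRF against siC, KRT18 (0.01) in siIGF2BP1 against siC, and IFNGR1 (0.01) and VIM (-0.02) between the knockdowns. Without single libraries PSME1 (-0.03 to 0.30), KRT18 (-0.19 to 0.07) and IFNE (-0.42 to 0.36) in siIGF2BP1 against siC and SOCS1 (-0.50 to 0.10) in siSRF against siC changed sign. None of these values was called, and the cause was not tested.

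Of 2982 alternative values for 167 named gene results, 2539 kept direction and side of the threshold, 103 passed it only under the alternative, 323 no longer passed it and 17 changed sign. Called values that moved by over 1.5 times include IFIT1 with a pseudocount of 1 (0.61 in siIGF2BP1 against siC, 0.93 between the knockdowns) and KRT7 after the GC and length trends (0.51 in siSRF against siC, 0.16 between the knockdowns). Keeping only genes with a mean of 0.1 FPKM in each group was an alternative chosen after seeing the data. It moved the median of other class I genes in siIGF2BP1 against siC from 0.14 to 0.06. Between the knockdowns it moved that of the leukocyte markers from 0.93 to 0.12, with 1 gene left of 2 tested. That of the ovarian carcinoma markers moved from 0.26 to 0.15 there and from 0.19 to 0.26 in siSRF against siC. The medians of the interferon-stimulated genes moved as given above. The falls of IGF2BP1 and SRF were called in every alternative. TAP1, TAP2, PSMB8 and PSMB9 had 9 to 33 reads per library.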
